A study of Homo sapiens with 6 samples.

Results

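The 9 genes described here encode the machinery that shows peptides on MHC class I molecules: HLA-B, HLA-C and HLA-E, B2M, TAP1, TAP2, TAPBP, PSMB8 and PSMB9. They were taken by symbol from the 13494 genes with a summed value, and all 9 were listed, with 53 transcripts between them. The cells were NALM6, a cell line established from a B-cell precursor leukemia, grown in RPMI medium with fetal bovine serum. One group of 3 libraries had received verteporfin for 48 h and the other group of 3 had received DMSO. The dose is 0.6 mmol/L as the labels write it, and that unit could not be checked. Verteporfin is a porphyrin used as an inhibitor of YAP and TEAD, and the study asked how Hippo pathway genes compare without and with it. All libraries come from 1 cell line, and nothing in the labels says that the replicates were separate cultures, so the p-values rest on library-to-library spread that could be technical only.

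Class I molecules present short peptides from inside the cell to CD8 T cells and to natural killer cells. The proteasome cuts proteins into peptides, and the immunoproteasome subunits encoded by PSMB8 and PSMB9 replace the standard catalytic subunits encoded by PSMB5 and PSMB6. The TAP1 and TAP2 proteins form the pump that carries peptides into the endoplasmic reticulum, where tapasin, the product of TAPBP, holds an empty class I molecule beside the pump. A class I molecule joins a heavy chain, such as HLA-B, HLA-C or HLA-E, to the light chain beta-2-microglobulin, the product of B2M. Transcription of these genes is known to rise with interferon through IRF and STAT factors, and in lymphocytes much of it depends on the regulator NLRC5 together with RFX, CREB and NF-Y factors at the promoters.

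The promoter windows below show the elements through which those factors are known to act, for the genes on which the results turn. They come from RefSeq (GRCh38.p14), run from 250 bases before to 50 bases after the start of the gene and are read 5′ to 3′ on the strand of the gene. RefSeq windows were matched for 8 of the 9 genes (10 windows, since TAP1 and PSMB8 each have a pair); HLA-E was not matched. Capitals mark any of 3 motifs on either strand: AANNGAAA (reverse TTTCNNTT), the core bound by IRF factors; TGACG (reverse CGTCA), the core of CREB sites; and CCAAT (reverse ATTGG), the box bound by NF-Y. Neighbouring matches can overlap and then form 1 run of capitals.
HLA-B (chr6:31357130-31357429, minus strand): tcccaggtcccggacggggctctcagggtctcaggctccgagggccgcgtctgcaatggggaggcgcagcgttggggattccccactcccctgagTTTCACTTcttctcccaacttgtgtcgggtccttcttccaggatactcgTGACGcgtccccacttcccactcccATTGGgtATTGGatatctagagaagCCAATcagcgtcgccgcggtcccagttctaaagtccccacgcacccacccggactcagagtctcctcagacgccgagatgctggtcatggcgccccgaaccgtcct
HLA-C (chr6:31272043-31272342, minus strand): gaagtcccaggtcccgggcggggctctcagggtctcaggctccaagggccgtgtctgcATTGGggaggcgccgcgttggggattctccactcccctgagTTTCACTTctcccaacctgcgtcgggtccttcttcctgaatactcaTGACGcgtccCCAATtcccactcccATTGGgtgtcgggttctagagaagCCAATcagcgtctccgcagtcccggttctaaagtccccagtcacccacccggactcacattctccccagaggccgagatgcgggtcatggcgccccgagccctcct
B2M (chr15:44711267-44711566, plus strand): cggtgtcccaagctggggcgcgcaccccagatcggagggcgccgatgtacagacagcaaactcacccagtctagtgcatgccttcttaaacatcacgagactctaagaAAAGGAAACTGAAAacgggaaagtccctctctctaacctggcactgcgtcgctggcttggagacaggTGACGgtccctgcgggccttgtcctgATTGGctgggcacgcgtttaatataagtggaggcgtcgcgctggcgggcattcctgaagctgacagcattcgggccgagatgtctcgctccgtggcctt
TAPBP (chr6:33314029-33314328, minus strand): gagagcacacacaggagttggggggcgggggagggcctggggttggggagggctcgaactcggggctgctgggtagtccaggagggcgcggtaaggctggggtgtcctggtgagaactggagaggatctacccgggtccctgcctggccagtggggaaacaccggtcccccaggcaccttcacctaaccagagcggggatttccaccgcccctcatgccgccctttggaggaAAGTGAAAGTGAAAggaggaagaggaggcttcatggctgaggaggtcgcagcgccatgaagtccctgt
PSMB8 upstream start (chr6:32844630-32844929, minus strand): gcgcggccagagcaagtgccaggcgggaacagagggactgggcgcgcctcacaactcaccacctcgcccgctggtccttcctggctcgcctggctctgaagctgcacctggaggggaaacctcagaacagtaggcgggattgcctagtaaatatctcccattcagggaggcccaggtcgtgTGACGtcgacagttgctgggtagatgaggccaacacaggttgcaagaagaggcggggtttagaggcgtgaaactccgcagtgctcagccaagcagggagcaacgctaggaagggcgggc
PSMB8 downstream start (chr6:32843998-32844297, minus strand): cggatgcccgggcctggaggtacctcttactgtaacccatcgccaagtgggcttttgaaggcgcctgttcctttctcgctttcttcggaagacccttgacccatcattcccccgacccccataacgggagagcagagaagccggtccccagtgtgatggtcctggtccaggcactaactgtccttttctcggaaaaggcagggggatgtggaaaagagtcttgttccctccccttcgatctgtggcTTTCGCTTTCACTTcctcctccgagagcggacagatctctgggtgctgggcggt

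The IRF core was found in 7 of the 10 windows, the CREB core in 6 and the CCAAT box in 5. Among all 35116 RefSeq windows of the same length 22.8% hold the IRF core, 24.6% the CREB core and 34.6% the CCAAT box. HLA-B, HLA-C and B2M each hold all 3 motifs. The start sites of PSMB8 differ: the upstream window has 1 CREB core and 0 IRF cores, while the downstream window has 2 overlapping IRF cores, the first beginning 4 bases before the start site. In TAPBP a pair of overlapping IRF cores begins 18 and 12 bases before the start site. A match describes letters only and does not show that a factor binds there. In RefSeq order TAP2, PSMB8, TAP1 and PSMB9 are direct neighbours on chromosome 6, between the class II genes HLA-DOB and HLA-DMB; HLA-B, HLA-C, HLA-E and TAPBP lie elsewhere on chromosome 6 and B2M on chromosome 15.

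Levels are FPKM (fragments per unit of transcript length and of library size), given by the authors for each Ensembl transcript and summed here over the transcripts of a gene. Read depth is unknown, so no counting interval can be given. The share of transcripts listed at 0 was 14.0% to 18.7% in DMSO and 5.23% to 11.3% in verteporfin. Of 12 B-cell precursor markers 11 were listed, CD79A, PAX5 and VPREB1 among them. Of 20 markers of T, myeloid, NK, erythroid, epithelial, stromal and endothelial cells only LYZ and NKG7 were listed, and their summed level ranged from 2.56 to 3.799 FPKM over the DMSO libraries and from 2.62 to 3.17 over the verteporfin libraries; the defining markers CD3D, CD3E, CD14, HBB and EPCAM were not among the listed genes. One property of the libraries touches the genes below. Across the 12952 genes tested, the deviation of a library from the mean of all 6 followed the GC percent of a gene's most abundant transcript, with Spearman's rho from -0.72 in verteporfin replicate 2 to 0.53 in DMSO replicate 1 (0.48 in verteporfin replicate 1 and -0.08 in verteporfin replicate 3). In verteporfin replicate 2, genes above 60% GC lay at a median of -0.64 on the log2 scale and those below 45% GC at 0.55. Results are therefore given beside values adjusted for this trend, a step added after the trend was seen.

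**Figure D1:**
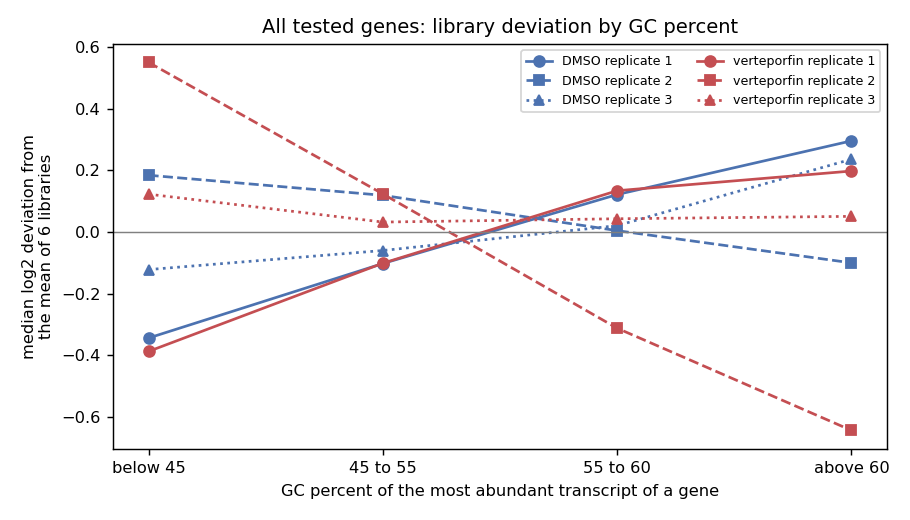
Median log2 deviation of each library from the mean of the 6 libraries (y axis) for all tested genes grouped by GC percent of the most abundant transcript (x axis); each line is 1 library. Verteporfin replicate 2 falls from 0.55 below 45% GC to -0.64 above 60% GC, while DMSO replicate 1 and verteporfin replicate 1 rise.

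None of the 9 genes passed the threshold between the groups, an adjusted p of 0.05 over all 12952 genes tested by limma. Less of a transcript per cell and fewer cells with it cannot be told apart in bulk RNA. Over all tested genes 2 were called, 0.0154%, both higher. At an unadjusted p under 0.05, reached by 8.84% of all tested genes, the class I genes had 1, TAPBP. Of the 9 log2 differences (verteporfin minus DMSO, of FPKM + 1, which understates differences of low genes) 3 were above 0 and 6 below 0, with a median of -0.18, against a median of 0.0074 over all tested genes. Adjusted for GC 4 were above 0 and the median was -0.043, and without verteporfin replicate 1 the median was -0.32 with 1 above 0. The groups did not overlap for 1 of the 9 genes, TAPBP, against 14.2% of all tested genes, 7.74% lower and 6.49% higher in verteporfin. Adjusted for GC, limma called 18 genes (0.139%), and again 0 of the class I genes (13.1% of all tested genes had an unadjusted p under 0.05 there, and TAPBP among the 9 did, at 0.00942).

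The levels span a wide range in DMSO. HLA-B stood alone at the top with 678 ± 67.9 FPKM, followed by HLA-E with 125 ± 16.1, HLA-C with 106 ± 16.7, PSMB9 with 105 ± 8.66 and PSMB8 with 87.3 ± 17.1 FPKM (SD, n = 3). From HLA-E to PSMB8 neighbours in this order overlapped between libraries. Below a gap came TAPBP with 53.5 ± 4.05, TAP1 with 50.9 ± 3.19, B2M with 44.6 ± 18.7 and TAP2 with 30.1 ± 2.57 FPKM (SD, n = 3), and among these neighbours also overlapped. Transcripts annotated as retained introns made up 23.9%, 42.5% and 67.7% of the B2M sum in DMSO replicates 1, 2 and 3. Of its 4 annotated coding transcripts 3 were listed, so the place of B2M in this order is uncertain.

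**Figure D2:**
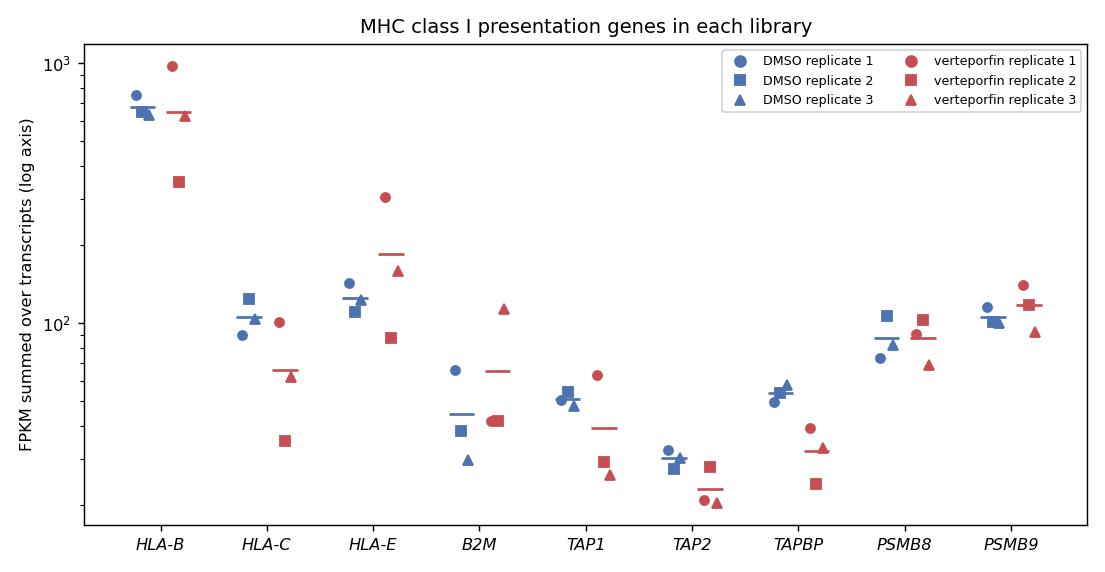
Summed FPKM (y axis, log scale) of each class I gene (x axis) in every library; points are libraries, horizontal lines are group means. HLA-B is highest in both groups, and TAPBP is the gene in which the 3 verteporfin libraries all lie below the DMSO libraries.

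Among the heavy chains, HLA-B, a classical class I chain that presents peptides to CD8 T cells, was at 756, 648 and 630 FPKM in DMSO replicates 1, 2 and 3 and at 974, 348 and 625 FPKM in verteporfin replicates 1, 2 and 3. The verteporfin libraries thus lay on both sides of the DMSO libraries, and the group means of 678 and 649 FPKM differed by less than their spread. The log2 difference was -0.18 (95% interval -1.01 to 0.65, limma adjusted p = 0.928), and 0.21 without verteporfin replicate 2. HLA-C, the other classical chain here and a main ligand of killer-cell receptors, was at 89.9, 123 and 104 FPKM in DMSO and at 101, 35.3 and 62.2 FPKM in verteporfin. Verteporfin replicates 2 and 3 lay below the 3 DMSO libraries and replicate 1 lay among them. Its log2 difference was -0.78 with a standard error of 0.37 (95% interval -1.59 to 0.033, limma adjusted p = 0.569), and it was -0.40 without verteporfin replicate 2.

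HLA-E, a chain of little variation that presents leader peptides of other class I chains to NKG2A on natural killer cells, was at 142, 110 and 123 FPKM in DMSO. In verteporfin it was at 305, 87.1 and 159 FPKM, so replicates 1 and 3 were above the 3 DMSO libraries and replicate 2 was below them. The log2 difference was 0.38 (95% interval -0.52 to 1.28, limma adjusted p = 0.827) and -0.076 without verteporfin replicate 1. The heavy chains are near copies in part: of the 50-base windows of the most abundant coding transcript, 2.47% in HLA-B, 6.66% in HLA-C and 4.66% in HLA-E also occur in other HLA class I genes, and the line's own alleles can differ from the reference, so the split of reads between these genes is uncertain.

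The verteporfin libraries were far more spread for the heavy chains than the DMSO libraries. The highest library was 1.20 times the lowest in DMSO for HLA-B, 1.37 times for HLA-C and 1.29 times for HLA-E, and 2.80, 2.86 and 3.50 times in verteporfin. Over the 9 genes the median log2 range within the group was 0.26 in DMSO and 1.24 in verteporfin (0.38 and 0.87 adjusted for GC), against 0.63 and 0.86 over all tested genes (0.52 and 0.63 adjusted). The part that GC content plays in this spread was not tested beyond these values.

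The heavy chains shared an order within the verteporfin group, with replicate 1 highest, replicate 3 between and replicate 2 lowest. This order held for HLA-B, HLA-C, HLA-E and TAPBP, 4 of the 9 genes (44.4%), against 22.5% of all tested genes. It held for 46.2% of the tested genes with at least 55% GC and for 9.27% of those under 55% GC; HLA-C has 60.2% GC, HLA-B 59.0%, TAPBP 57.6% and HLA-E 54.8%. The gap between verteporfin replicates 1 and 2 was 1.48 in HLA-B, 1.49 in HLA-C and 1.79 in HLA-E on the log2 scale, and 0.95, 0.87 and 1.59 after the GC adjustment. Of these 3 gaps the one in HLA-E changed least. With the adjustment the log2 difference between groups was -0.043 in HLA-B, -0.61 in HLA-C and 0.41 in HLA-E. By Pearson's r of log2 values over the 6 libraries, given as a description since the libraries share the GC trend, the genes most like HLA-B were FAM131A, ZBTB45, ZNF768, RASAL1 and NFKBID, with r from 0.989 to 0.994 among 11818 genes and 55.9% to 65.4% GC.

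B2M, the light chain shared by the heavy chains, was at 65.6, 38.4 and 29.7 FPKM in DMSO and at 41.9, 41.8 and 113 FPKM in verteporfin. A single verteporfin library, replicate 3, was above the DMSO range. The log2 difference was 0.46 (95% interval -0.50 to 1.41, limma adjusted p = 0.794), and -0.013 without verteporfin replicate 3. With library weights limma called B2M higher (1.26, adjusted p = 0.0488), in a fit that gave verteporfin replicate 3 a weight of 3.88 against 0.416 and 0.363 for replicates 1 and 2 and called 8.35% of all tested genes; the estimate of the weights stopped before it converged. Much of the variation lay in 1 transcript, ENST00000559916, at 36.9, 0.729 and 0.187 FPKM in DMSO and 0.604, 1.67 and 51.2 FPKM in verteporfin. It was thus high in 1 library of each group and low in the others. Of the coding transcripts in the annotation used to name them, 3 of 4 were listed for B2M, 1 of 2 for TAP1, 2 of 3 for PSMB8 and 1 of 3 for PSMB9, so the sums and shares of these genes may leave out part of the gene.

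**Figure D3:**
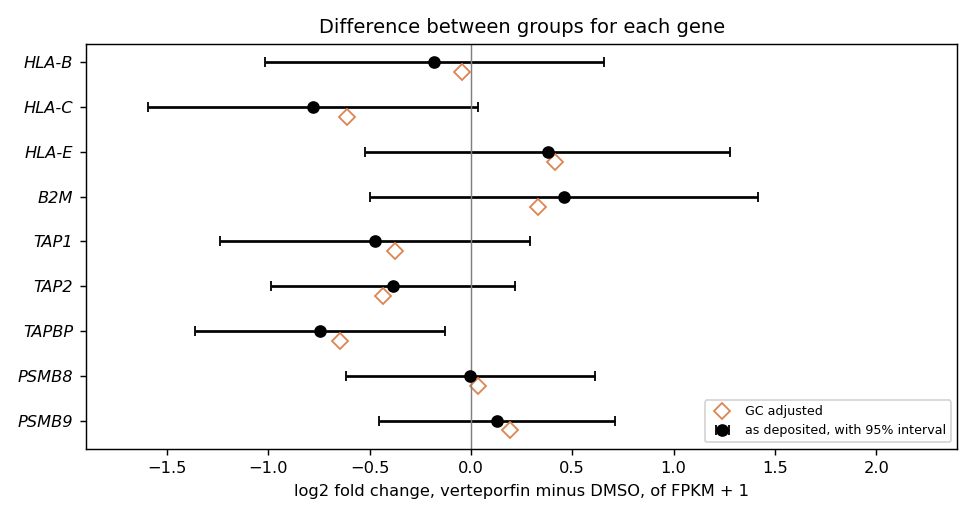
Log2 difference of each class I gene, verteporfin minus DMSO (x axis), with its 95% interval from limma (black) and the value after GC adjustment (open diamonds). Each interval except that of TAPBP, -1.36 to -0.13, includes 0.

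Of the loading machinery, TAPBP, which encodes tapasin, was at 49.4, 53.5 and 57.5 FPKM in DMSO and at 39.5, 23.9 and 32.9 FPKM in verteporfin. Every verteporfin library was below every DMSO library, a direction without overlap that 7.74% of all tested genes share. Its log2 difference was -0.75 with a standard error of 0.28 (95% interval -1.36 to -0.13), and limma gave an unadjusted p of 0.0226, or 0.485 after adjustment, so it did not pass over all genes. Adjusted for GC the value was -0.64 (limma adjusted p = 0.244), and the range among the verteporfin libraries was 0.26 on the log2 scale, against 0.70 before. With library weights TAPBP was called lower (-0.72, limma adjusted p = 0.0425), as were 3% of all tested genes. Its most abundant transcript, ENST00000434618, was at 30.5, 40.2 and 22.2 FPKM in DMSO and 28.6, 17.4 and 21.3 FPKM in verteporfin, so that the groups overlapped there.

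TAP1, a subunit of the peptide pump, was at 50.6, 54.2 and 47.8 FPKM in DMSO and at 62.8, 29.1 and 26.0 FPKM in verteporfin. Replicates 2 and 3 lay below the DMSO libraries and replicate 1 above them (log2 difference -0.47, 95% interval -1.24 to 0.29, limma adjusted p = 0.72). The difference was -0.86 without verteporfin replicate 1 and -0.24 without verteporfin replicate 3. TAP2, the other subunit, was at 32.5, 27.4 and 30.3 FPKM in DMSO and at 20.8, 27.9 and 20.3 FPKM in verteporfin. Verteporfin replicates 1 and 3 were below the DMSO libraries and replicate 2 was among them (log2 difference -0.38, 95% interval -0.99 to 0.22, limma adjusted p = 0.713).

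Behind the TAP2 sum, verteporfin replicate 2 stood apart in its transcripts. ENST00000620123 was at 27.1, 22.3 and 25.2 FPKM in DMSO and at 15.1, 0.777 and 14.5 FPKM in verteporfin. ENST00000374899, a shorter transcript of 2497 bases against 5676, was at 0 to 0.246 FPKM in DMSO, at 0.267 and 0 FPKM in verteporfin replicates 1 and 3 and at 18.3 FPKM in verteporfin replicate 2. The first transcript thus made up 4.08% of the pair in that library and 98.3% to 100% in the other 5. Neither passed on single transcripts (adjusted p = 0.759 and 0.834 by limma).

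Single transcripts were tested across the whole table as well, a step added after the data were seen. Of the 53 class I transcripts 51 passed the minimum mean of 0.5 FPKM and 0 were called, against 17 of 55148 (0.0308%) over all. At an unadjusted p under 0.05 there were 5, 3 lower and 2 higher, against 6.55% of all transcripts tested. The groups did not overlap for 7 lower and 2 higher transcripts of the 51, against 6.81% and 5.47% of all. Among the 7, ENST00000640094 of HLA-B reached the 0.5 FPKM needed for listing only in DMSO (mean 0.885, against 0.478 in verteporfin). Transcripts of the same gene are not separate observations, so these counts are a description only.

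**Figure D4:**
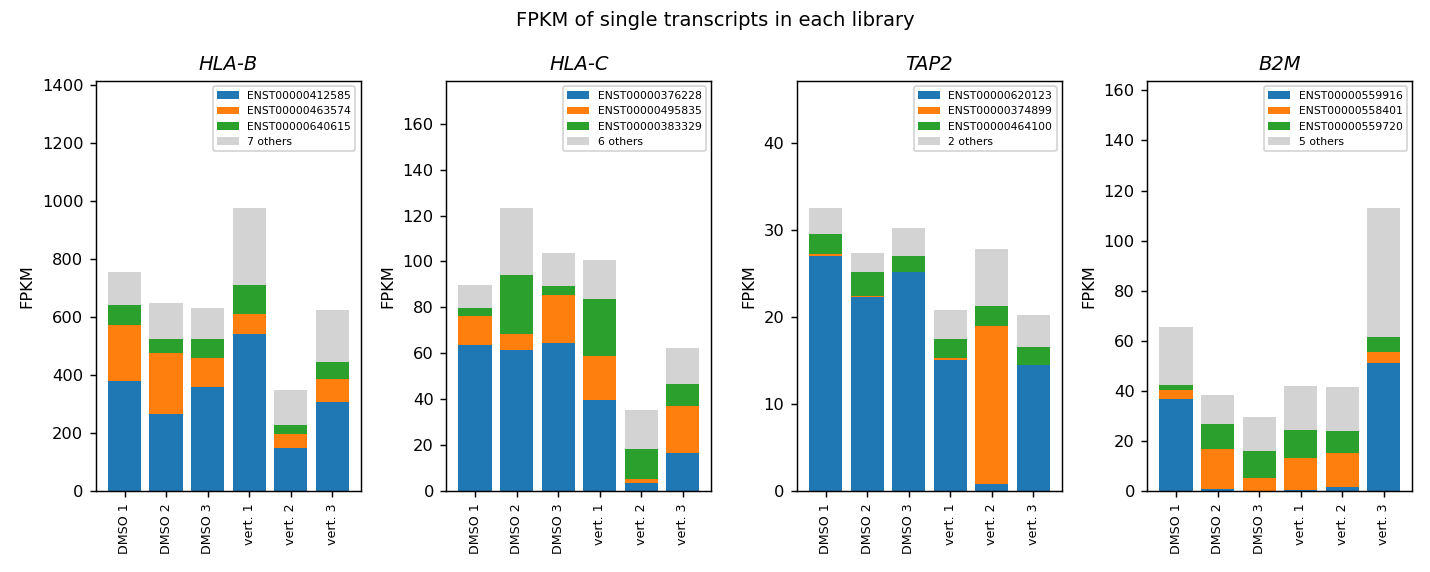
FPKM of the 3 most abundant transcripts, by mean over the libraries, and of all others summed (y axis) for HLA-B, HLA-C, TAP2 and B2M in each library (x axis). TAP2 in verteporfin replicate 2 is carried by ENST00000374899 at 18.3 FPKM, and ENST00000376228 of HLA-C is between 61.3 and 64.4 FPKM in DMSO and between 3.34 and 39.6 in verteporfin.

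In HLA-C the sum also joined transcripts that had different patterns. ENST00000376228 was at 63.7, 61.3 and 64.4 FPKM in DMSO and at 39.6, 3.34 and 16.7 FPKM in verteporfin, lower in each verteporfin library (log2 difference -2.13, 95% interval -3.85 to -0.42, unadjusted p = 0.0207, limma adjusted p = 0.739 on single transcripts). ENST00000383329 was at 3.69, 25.4 and 4.03 FPKM in DMSO and at 24.8, 13.2 and 9.71 FPKM in verteporfin, so the groups overlapped. These transcripts have the same sequence except for 18 bases, positions 1032 to 1049 of the longer one, shown here in capitals with 30 bases on each side (GENCODE 29), because reads can tell the transcripts apart only there.
HLA-C ENST00000383329: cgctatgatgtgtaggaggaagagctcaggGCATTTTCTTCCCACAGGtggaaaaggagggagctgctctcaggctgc
Their sum, 67.4, 86.8 and 68.5 FPKM in DMSO against 64.4, 16.5 and 26.4 FPKM in verteporfin, was lower in each verteporfin library, though in replicate 1 by little.

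The most abundant transcript of HLA-B, ENST00000412585, made up 41.1% to 57.1% of its sum, at 378, 266 and 360 FPKM in DMSO and 540, 147 and 306 FPKM in verteporfin, with overlapping groups. A short transcript of 588 bases annotated as a retained intron, ENST00000463574, was at 194, 208 and 100 FPKM in DMSO and at 68.9, 48.9 and 81.2 FPKM in verteporfin, lower in each verteporfin library (log2 difference -1.28, unadjusted p = 0.0113, limma adjusted p = 0.658 on single transcripts). Another one, ENST00000474381, was higher in each verteporfin library, at 14.0 to 19.3 FPKM in DMSO and 74.9, 21.7 and 42.1 FPKM in verteporfin (1.25, limma adjusted p = 0.759). Transcripts annotated as retained introns made up 31.4% to 50.2% of the HLA-B sum in DMSO and 33.0% to 48.0% in verteporfin, so the ranges overlapped.

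The immunoproteasome genes had nearly equal sums in both groups. PSMB8, the chymotrypsin-like subunit, was at 73.3, 106 and 82.4 FPKM in DMSO and at 90.8, 102 and 68.6 FPKM in verteporfin, with a log2 difference of -0.0023 (95% interval -0.62 to 0.61, limma adjusted p = 0.998). PSMB9, the subunit that takes the place of the PSMB6 product, was at 115, 101 and 99.6 FPKM in DMSO and at 140, 117 and 92.5 FPKM in verteporfin (log2 difference 0.13, 95% interval -0.46 to 0.71, limma adjusted p = 0.928). In both genes the groups overlapped, and the intervals leave room for differences in either direction.

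Behind the equal PSMB8 sums, single transcripts had different patterns. PSMB8 has a pair of start sites, 656 bases apart in GENCODE 29, whose first exons differ and join the same later exons. The transcripts are known as E1 (upstream start) and E2 (downstream start); E2 encodes the form built into the immunoproteasome, while the E1 form has been described in human tumor lines as poorly incorporated. The first 60 coding bases of each, which lie in the first exon (GRCh38), show that the openings have little in common.
PSMB8 E1 (ENST00000374881, chr6:32844354-32844413, minus strand): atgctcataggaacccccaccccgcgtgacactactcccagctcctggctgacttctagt
PSMB8 E2 (ENST00000374882, chr6:32843937-32843996, minus strand): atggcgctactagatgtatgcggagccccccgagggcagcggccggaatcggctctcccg
E1 was at 16.0, 14.3 and 16.6 FPKM in DMSO and at 2.05, 5.03 and 2.095 FPKM in verteporfin. All 3 verteporfin libraries were far below the DMSO libraries, which lay close together. The log2 difference was -2.11 with a standard error of 0.43 (95% interval -3.10 to -1.12), and limma gave an unadjusted p of 0.00114, or 0.351 after adjustment on single transcripts. Adjusted for GC it was -2.07 (limma adjusted p = 0.32). E2 was at 54.5, 85.2 and 59.97 FPKM in DMSO and at 83.0, 90.3 and 61.8 FPKM in verteporfin, with overlapping groups (log2 difference 0.24, limma adjusted p = 0.91). E1 thus made up 22.6%, 14.4% and 21.7% of the pair in DMSO and 2.405%, 5.28% and 3.28% in verteporfin, a share chosen for display after its values were seen. The window printed above for the upstream start of PSMB8 covers the GENCODE 29 start of E1, at chr6:32844703, and holds 0 IRF cores. That window was placed on the RefSeq start, which lies a short way downstream of the E1 start. The downstream window belongs to E2.

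Against its standard counterpart, PSMB8 had a higher share in each verteporfin library than in any DMSO library. PSMB8 made up 70.7%, 70.9% and 73.4% of the FPKM of PSMB8 and PSMB5 in DMSO and 80.7%, 82.3% and 80.6% in verteporfin. The means of 71.7% ± 1.51 and 81.2% ± 0.964 (SD, n = 3) were far apart compared with the spread, but a 2-sided exact permutation test cannot give less than the p of 0.1 found here, which is 0.4 adjusted over 4 ratios tested. PSMB5, the standard chymotrypsin-like subunit, was at 30.4, 43.6 and 29.8 FPKM in DMSO and at 21.7, 22.02 and 16.5 FPKM in verteporfin, lower in each verteporfin library (log2 difference -0.74, unadjusted p = 0.026, limma adjusted p = 0.493). PSMB9 made up 66.0% ± 1.62 of PSMB9 and PSMB6 in DMSO and 68.9% ± 6.83 in verteporfin (SD, n = 3; exact permutation p = 0.7). For PSMB10 and PSMB7 the share was 44.3% ± 11.7 and 40.0% ± 16.9 (SD, n = 3; exact permutation p = 0.7), with 20.4% in verteporfin replicate 2.

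**Figure D5:**
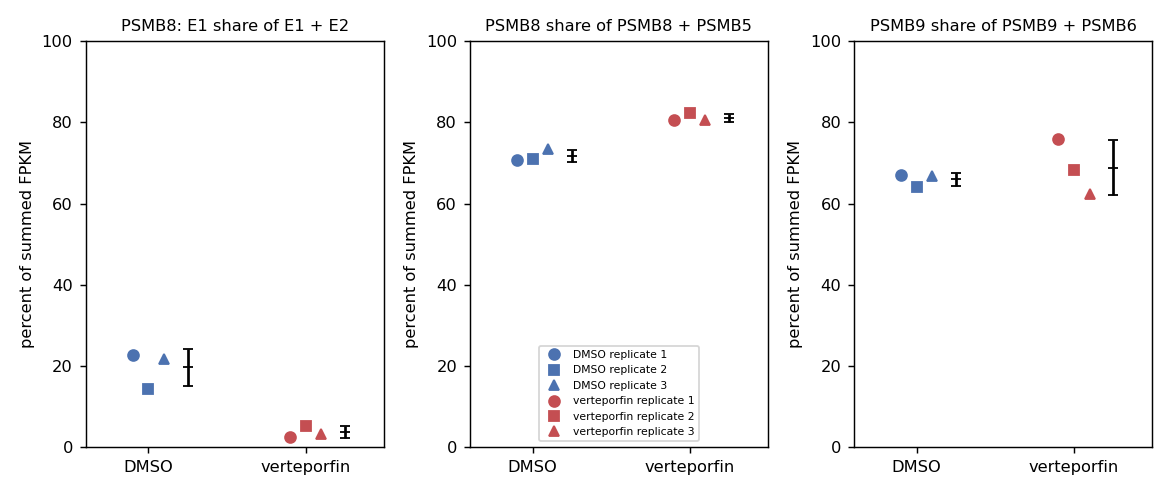
Share of summed FPKM in percent (y axis) in each library by group (x axis): transcript E1 among E1 and E2 of PSMB8, PSMB8 among PSMB8 and PSMB5, and PSMB9 among PSMB9 and PSMB6; points are libraries, black marks are mean and SD. Mean E1 shares are 19.6% in DMSO and 3.65% in verteporfin and mean PSMB8 shares are 71.7% and 81.2%, without overlap, while the PSMB9 shares overlap.

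Genes around the 9 were read from lists of the pathway, in which limma called 0 genes in either direction; the counts at an unadjusted p under 0.05 are given with each list. With library weights, the fit that did not converge, 11 of the 87 genes of these lists were called (12.6%), against 8.35% of all tested genes. Examples were picked after their values were seen. Of 17 genes of peptide supply 13 had a log2 difference below 0 and 4 above 0 (median -0.17), and 2, both lower, had an unadjusted p under 0.05: PSMB5 and PSME2, which encodes a subunit of the proteasome activator PA28 (from 57.6 to 90.5 FPKM over the DMSO libraries and from 28.95 to 63.4 over the verteporfin libraries, log2 difference -0.81, limma adjusted p = 0.528). Of 9 genes of the loading complex and its chaperones 7 were below 0 and 2 above 0 (median -0.43), and 2, PDIA3 and UGGT1, had an unadjusted p under 0.05, both lower. PDIA3, which encodes the ERp57 partner of tapasin, was at 83.5, 68.0 and 97.3 FPKM in DMSO and at 53.4, 51.3 and 55.4 FPKM in verteporfin (log2 difference -0.61, limma adjusted p = 0.534). UGGT1, which encodes the enzyme that checks glycoprotein folding and returns class I molecules for loading, had a log2 difference of -1.12 (limma adjusted p = 0.46). PDIA3, UGGT1 and CALR, the gene of the chaperone calreticulin, had groups without overlap, lower in verteporfin, 3 of the 9 genes against 7.74% of all tested genes.

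Regulators of class I transcription lay on both sides of 0. Of 26 tested 17 were above 0 and 9 below 0 (median 0.12), and 3 higher and 1 lower had an unadjusted p under 0.05. NLRC5, the class I transactivator, was at 119, 103 and 69.5 FPKM in DMSO and at 120, 63.1 and 97.7 FPKM in verteporfin (log2 difference -0.065, limma adjusted p = 0.971). IRF1, an interferon-induced activator of class I genes, was at 58.5, 37.0 and 52.6 FPKM in DMSO and at 68.2, 72.9 and 94.8 FPKM in verteporfin, higher in each verteporfin library (0.67, limma adjusted p = 0.537). NFYB, a subunit of the CCAAT-binding factor, was at 15.1, 19.3 and 18.3 FPKM in DMSO and at 9.89, 12.6 and 9.53 FPKM in verteporfin (-0.68, limma adjusted p = 0.545). Of 19 genes of the interferon response 8 were above 0 and 11 below 0 (median -0.052), and 3, all higher, had an unadjusted p under 0.05. Among them TRIM22, an interferon-induced antiviral gene, was at 9.47, 18.4 and 15.3 FPKM in DMSO and at 23.3, 38.9 and 44.6 FPKM in verteporfin, higher in each verteporfin library (1.25, limma adjusted p = 0.404, and 0.00849 with library weights), while ISG15 and MX1 had log2 differences of -0.42 and -0.31. Adjusted for GC the log2 differences were 1.17 in TRIM22, -0.10 in ISG15 and -0.33 in MX1. Class II genes, some of which flank TAP2 to PSMB9, had 5 of 11 above 0 and a median of -0.0097, with 0 at an unadjusted p under 0.05.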

How the data were processed

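RNA of 6 NALM6 libraries, 3 per group, was sequenced after a stranded KAPA preparation, per the labels' protocols. The authors deposited FPKM per Ensembl transcript, per the file headers. The submitters' processing notes list hg18 as the build and, among tools, StringTie 1.3.3, HISAT2 2.1.0, STAR, edgeR, cutadapt and FastQC, without roles. Transcript identifiers have the suffix GENCODE uses for models lifted to GRCh37, which leaves the build of the values uncertain; printed coordinates belong to the reference sequences. The mean of each listed transcript reaches 0.5 FPKM in at least 1 group. A trailing block of 4765 whole-number entries (tolerance 0) is not FPKM, holds 0 entries of the class I genes and was left out. GENCODE 29 matched 61975 of 62250 transcripts, and 275 (0.442%) had no match. Read depth is unknown.

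Sums over genes with a mean of 0.5 FPKM or more were tested as log2(FPKM + 1) with limma 3.58.1 (variance trend, 2-sided, R 4.3.3). P-values were adjusted by Benjamini-Hochberg over 12952 genes, with a threshold of 0.05. Ratios used exact permutation tests, adjusted over 4, of which 3 are given; some results are not reported here. For the GC adjustment, each library's lowess trend of log2 deviations on GC percent was subtracted. Python 3.11.15 served for the rest, with scipy 1.17.1, numpy 2.4.6, matplotlib 3.10.9 and pandas 2.3.3. All 9 genes are named whatever their value, with the genes of pathway lists and the 5 genes most like HLA-B. Members and lists were chosen with earlier results of these data known, and single transcripts after their values were seen.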

Additional observations from a re-analysis of the deposited data

How the results depend on the processing

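Of 171 log2 differences of the 9 genes under other settings, 158 kept direction and side of the threshold. The count of genes called by limma, 2 as reported, was 0 with a pseudocount of 0.1 or 0.01, equal medians, no variance trend or coding transcripts only (896 to 1158 genes at an unadjusted p under 0.05), 1 with the most abundant transcript, 1081 with library weights, 18 adjusted for GC and 13 adjusted for GC with the replicate block. Leaving out 1 library it ranged from 0 (without DMSO replicate 1 or 2 or verteporfin replicate 3, with 726, 1304 and 854 at an unadjusted p under 0.05) to 12 (without verteporfin replicate 2), with 1 without DMSO replicate 3 and 11 without verteporfin replicate 1. Class I genes called were 2 with library weights, B2M (1.26) and TAPBP (-0.72), in a fit whose weights did not converge. Those above 0 ranged from 1 to 4 when 1 library was left out. Their median ranged from -0.32 to -0.12 over the same fits and was -0.043 adjusted for GC. Over those fits HLA-B ranged from -0.53 to 0.21, HLA-C from -1.14 to -0.40, HLA-E from -0.076 to 0.82, TAP1 from -0.86 to -0.24, B2M from -0.013 to 0.77, PSMB8 from -0.13 to 0.16 and PSMB9 from -0.012 to 0.28. The difference in PSMB9 share ranged from -0.662 to 6.15 percentage points and that in PSMB10 share from -10.99 to 5.46. PSMB8 was 0.13 with quantile normalization, 0.24 with the most abundant transcript and 0.034 adjusted for GC, with or without the block, and PSMB9 was -0.093 with library weights. The cause was not tested. Deviations of same-numbered libraries correlated at 0.389, 0.509 and 0.0985, for each DMSO library its best match among the verteporfin libraries. Read from the verteporfin side, replicate 3 correlated better with DMSO replicate 1 (0.138). The labels give no shared culture or day, so the numbers were not taken as pairs in the main fit. With the replicate block limma called 84 genes, 44 higher and 40 lower. These held 0 of the class I genes, and TRIM22 among the pathway lists (limma adjusted p = 0.0495). Count-based settings were not run, since the values are FPKM.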

Other observations

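Transcripts annotated as retained introns made up 23.1%, 27.4% and 31.3% of the HLA-C sum in DMSO replicates 1, 2 and 3 and 33.1%, 49.0% and 51.0% in verteporfin replicates 1, 2 and 3. The verteporfin shares were above the DMSO shares in each library, while those of HLA-B and of the other class I genes overlapped. Such shares were computed for the class I genes only, so whether HLA-C differs from genes at large in this was not tested. For summed levels, groups without overlap in either direction were found in 14.2% of all tested genes. A share also depends on the coding transcripts, and ENST00000376228 of HLA-C was lower in each verteporfin library. The most abundant retained-intron transcript of HLA-C, ENST00000495835, was at 12.3, 7.29 and 21.0 FPKM in DMSO. In verteporfin it was at 19.3, 1.79 and 20.3 FPKM, so the groups overlapped. Among B2M transcripts ENST00000632133, also annotated as a retained intron, was at 3.27, 3.71 and 2.86 FPKM in DMSO and 7.11, 7.07 and 6.26 FPKM in verteporfin, higher in each verteporfin library (log2 difference 0.87, limma adjusted p = 0.759 on single transcripts). These values were picked after they were seen, and fragments from unspliced RNA were not separated from them.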
